A study of Mus musculus with 4 samples.

Results

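The genes described here are the chaperonins of the newborn mouse lens, the 8 subunit genes of the cytosolic chaperonin CCT (Tcp1, Cct2, Cct3, Cct4, Cct5, Cct6a, Cct7 and Cct8) and the mitochondrial pair Hspd1 and Hspe1, which encode HSP60 and its lid HSP10. The probe sets used are all those that the platform annotation gives to exactly 1 of these genes, 28 of the 45101 probe sets on each array, of which 25 belong to CCT genes and 3 to Hspd1 and Hspe1. The arrays compared lenses of Hsf4 knockout mice with lenses of wild-type mice, 2 arrays per group, all labelled as males of the 129S3 background at postnatal day 0.5. Hsf4 is a member of the heat shock factor family that acts in the developing lens, and the question here is whether chaperonin RNA levels depend on it. The labels do not describe the deleted allele, nor do they tie the 2 samples of a group to different mice, so p-values reflect the spread of these arrays, possibly a technical one.

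Chaperonins are ring-shaped folding machines that enclose an unfolded protein in a central chamber and release it after ATP hydrolysis. CCT, also called TRiC, folds proteins of the cytosol and is best known for actin and tubulin, which cannot reach their native state without it, and for proteins with WD40 propellers. HSP60 works in the mitochondrial matrix, where HSP10 caps its ring. Genes of heat shock proteins carry heat shock elements, inverted repeats of the unit GAA that trimers of heat shock factors bind, and the lens is a tissue that makes and keeps very large amounts of soluble protein.

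The promoter shared by Hspd1 and Hspe1 is shown because it holds a run of such units and because Hsf4 belongs to the family that binds them. The genes lie head to head on mouse chromosome 1. The stretch between the annotated start of Hspe1 and the nearer annotated start of Hspd1 is given on the Hspe1 strand (RefSeq, build GRCm38.p6, chr1:55087933-55088147), and the capitals mark 4 heat shock units in alternating orientation.
Hspd1 and Hspe1 shared promoter: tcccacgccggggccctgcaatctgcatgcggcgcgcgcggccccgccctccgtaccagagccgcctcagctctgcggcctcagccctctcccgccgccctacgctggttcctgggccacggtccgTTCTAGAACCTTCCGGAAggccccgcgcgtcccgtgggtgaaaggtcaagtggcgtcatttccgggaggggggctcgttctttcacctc

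The run in capitals lies 72 bases from the start of Hspe1 and 127 bases from that start of Hspd1. Searched on both strands as 4 alternating units TTC and GAA with any 2 bases between neighbours, beginning with either unit, such a run was found in 8 of 32851 promoter windows of 300 bases, from upstream of each annotated start to just inside the transcript, in the RefSeq table (0.0244%), and 2 of the 8 are the overlapping windows of Hspd1 and Hspe1. A run of 3 such units, beginning with either, which every run of 4 also contains, was in 0.603% of the windows. A pair of units (TTCNNGAA or GAANNTTC, both of which read the same on either strand) was in 15.1%.

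The CCT genes are scattered over the genome, with Cct3 on chromosome 3, Cct6a on 5, Cct7 on 6, Cct2 on 10, Cct4 on 11, Cct5 on 15, Cct8 on 16 and Tcp1 on 17. Of the 8, 7 had a promoter entry, and Cct4 had none. No CCT window held a run of 3 units. Cct2, Cct5 and Cct6a held a single pair each, Cct2 and Cct5 in 1 of their 2 windows, and these are given on the strand of each gene with the pair in capitals, for comparison with the longer run above (RefSeq, GRCm38.p6, chr10:117063399-117063428, chr15:31601862-31601891 and chr5:129787369-129787398).
Cct2: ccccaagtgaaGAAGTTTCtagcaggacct
Cct5: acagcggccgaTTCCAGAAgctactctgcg
Cct6a: gcgtaagacttTTCGAGAAgaccccgcaga

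The pair of Cct2 begins at position -42 from one annotated start, that of Cct5 at -34 and that of Cct6a at 24, inside the transcribed part. No pair was found in the windows of Tcp1, Cct3, Cct7 and Cct8, nor in the window of the farther Hspd1 start. A match of letters is a description of the sequence and shows no binding.

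Levels are given as intensities after quantile normalization, which gives all arrays the same distribution. The deposited medians were 18.5 and 6.58 on the knockout arrays 1 and 2 and 21.4 and 10.5 on the wild-type arrays 1 and 2, and the number of arrays limits the precision. The single probe set of Hsf4 was brighter on the arrays labelled knockout, at 1212 and 413, against 505 and 138 on the arrays labelled wild type, with a log2 change of 1.36 (1.24 within number 1 and 1.48 within number 2), an unadjusted p of 0.0486 and an adjusted p of 1 (limma, Benjamini-Hochberg). The change was 0.48 without wild-type array 2 and 2.23 without wild-type array 1. Its position relative to the deletion is not known here, so it cannot check the labels, and all group names and directions below are those of the labels. Of the 15 lens markers measured, all were above the filter described next, and 4 were lower and 4 higher in knockout within both numbers. Of all tested genes 27.5% were lower and 26.1% higher. Bfsp1, a protein of the lens beaded filament, measured 2186 and 2060 on knockout arrays, against 5220 and 3785 on wild-type arrays, a log2 change of -1.06 (unadjusted p = 0.000698 and adjusted p = 0.542 in limma). With 1 array left out its log2 change ran from -1.29 without wild-type array 2 to -0.83 without wild-type array 1. Mip, the water channel of fibre cells, had 4896 and 4746 on knockout arrays, against 4228 and 3670 on wild-type arrays, a change of 0.29. Over the 15 lens markers the changes ran from -1.06 to 0.999, with a median of 0. Their summed intensities were 62589 and 62807 on knockout arrays, against 64400 and 61998 on wild-type arrays. The median was also 0 within each number. Quantile normalization sets values by rank, so equal values among the brightest genes are partly fixed by the method. The median and the sums therefore do not by themselves show that the arrays held equal lens RNA.

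All 11 tested striated muscle markers were dimmer on both knockout arrays, and the 12 measured had summed intensities of 148 and 146 on knockout arrays, against 2939 and 1446 on wild-type arrays. Of these, Actc1 and Myl1 passed the threshold. Cardiac actin, Actc1, measured 7.84 and 2.18 on knockout arrays, against 443 and 218 on wild-type arrays (limma, adjusted p = 0.0201). The myosin light chain gene Myl1 measured 8.96 and 16.5 on knockout arrays, against 489 and 255 on wild-type arrays (limma, adjusted p = 0.0201). Of the 9 fibroblast and pericyte markers 8 were lower within both numbers, with sums of 516 and 728 on knockout arrays, against 1345 and 1954 on wild-type arrays. The collagen genes Col1a1 and Col3a1 had log2 changes of -1.84 and -1.73, with an adjusted p of 0.307 and 0.758 in limma. Sums of the retina markers were 1931 and 743 on knockout arrays, against 1853 and 1791 on wild-type arrays, with -0.85 for Rcvrn and -1.02 for Neurod4, both dimmest on knockout array 2. Those of the erythroid markers were 135 and 514 on knockout arrays, against 91.7 and 158 on wild-type arrays, with 1.07 for Hbb-b2 and 0.90 for Alas2, both brightest on knockout array 2. Those of the endothelium markers were 341 and 357 on knockout arrays, against 373 and 290 on wild-type arrays, with 0.50 for Tie1 and -0.36 for Flt1. The ribosomal control probe set of the 18S middle region measured 16.7 and 3636 on knockout arrays 1 and 2, and 14.3 and 432 on wild-type arrays 1 and 2. That of the 3' region measured 10.6 and 3228 on knockout arrays, and 12.8 and 349 on wild-type arrays. For the 5' region the values were 14.3 and 7309 on knockout arrays, and 1.52 and 6898 on wild-type arrays. Whether these other cell types or the difference between equally numbered arrays have a part in the chaperonin values was not tested. In whole lenses, fewer cells of a type and less RNA per cell cannot be told apart.

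No chaperonin gene passed the test in either direction. Of the 28 member probe sets, 24 passed the filter on dim values (a mean of at least 4.86 on the log2 scale, the median over probe sets), and 0 of these 24 passed an adjusted p of 0.05 in limma, in either direction, where 0.0178% of all 22519 tested probe sets did. At an unadjusted p under 0.05 the count was 0 of 24, beside 2.33% of all. The lowest unadjusted p of a member was 0.115, and every member's adjusted p was 1. All 24 log2 changes (knockout minus wild type, after adding 16 to each intensity) were smaller than 0.5 in size, as were 88.1% of all tested probe sets. They ranged from -0.47 to 0.44, with a median of -0.08 beside -0.01 over all tested probe sets. The 4 members below the filter were 2 probe sets of Cct3, 1 of Cct4 and 1 of Cct8, with intensities from 0.3 to 19.1.

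**Figure D1:**
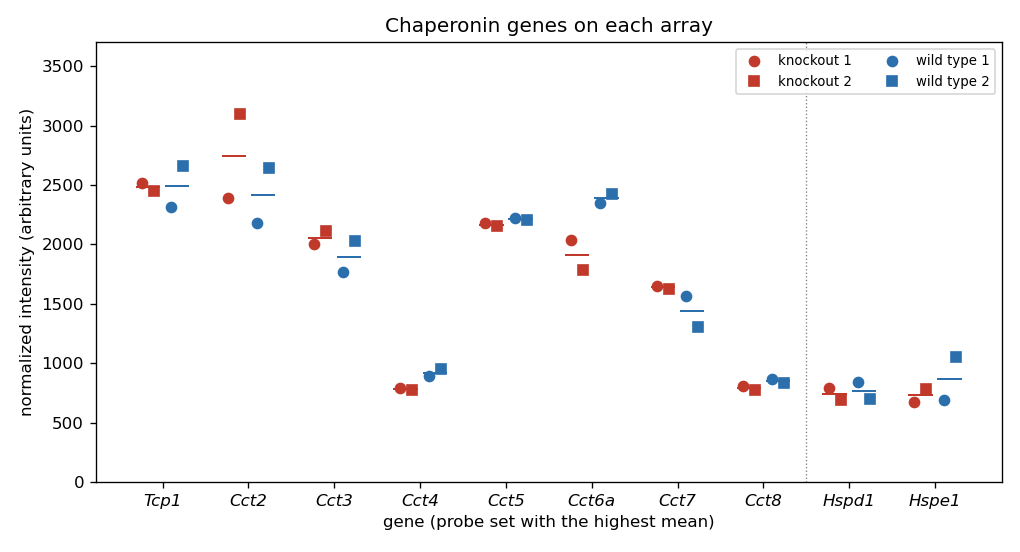
Normalized intensity (vertical axis, arbitrary units) of the 10 chaperonin genes on each of the 4 arrays, 1 probe set per gene, that of the highest mean. Red symbols are knockout arrays and blue symbols wild-type arrays, circles number 1 and squares number 2, with a line at each group mean. Both knockout values of Cct6a, 2035 and 1783, lie below both wild-type values, and those of Tcp1, Hspd1 and Hspe1 overlap with wild type. Heights of different genes come from different probes and are not comparable.

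Each gene is described by the brightest of its probe sets over the 4 arrays, beginning with the CCT subunits. Tcp1, the alpha subunit, first found in the mouse t complex that gave it its name, measured 2514 and 2450 on the knockout arrays, against 2318 and 2663 on the wild-type arrays. The knockout values lay between the wild-type ones. The log2 change was -0.00 (SE 0.20, 95% confidence interval -0.45 to 0.45).

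Cct2, the beta subunit, in which human mutations cause an inherited retinal dystrophy, measured 2391 and 3099 on knockout arrays, against 2179 and 2645 on wild-type arrays (probe set 1433535_x_at). The number 2 array was the brighter in each group and the groups overlapped. The log2 change was 0.18 (SE 0.22, interval -0.32 to 0.68). A further probe set, 1416037_a_at, had 2084 and 2177 on knockout arrays, against 2005 and 1795 on wild-type arrays, a log2 change of 0.17 (interval -0.30 to 0.63). Another, 1433534_a_at, had 658 and 630 on knockout arrays, against 741 and 670 on wild-type arrays, a change of -0.13. The 3 probe sets of Cct2 thus pointed in different directions, and each interval included 0.

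Cct3, the gamma subunit, measured 2003 and 2113 on knockout arrays, against 1771 and 2025 on wild-type arrays, with a log2 change of 0.12 (SE 0.21, interval -0.35 to 0.59). Of its 5 tested probe sets, 2 were lower and 3 higher in knockout, from -0.39 to 0.22. The lowest, 1459987_s_at, measured 1474 and 987 on knockout arrays, against 1550 and 1630 on wild-type arrays, so that knockout array 2 stood below the other 3 arrays, while the change within number 1 was -0.07.

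Cct4, the delta subunit, mutated in a rat strain with sensory neuropathy, measured 794 and 776 on knockout arrays, against 890 and 950 on wild-type arrays. Both knockout arrays were below both wild-type arrays. The log2 change was -0.22 (SE 0.24, interval -0.77 to 0.32). Its 6 tested probe sets covered the widest span of any member gene, from -0.47 to 0.44, with 4 lower and 2 higher. The lowest, 1438560_x_at, measured 354 and 334 on knockout arrays, against 461 and 507 on wild-type arrays (interval -1.09 to 0.14). The highest, 1456572_x_at, was dim, at 67.3 and 53.3 on knockout arrays, against 51.4 and 30.8 on wild-type arrays (interval -0.30 to 1.17). Both carry the suffix by which the manufacturer marks probe sets whose probes may also match other transcripts. So does 1433535_x_at, the probe set by which Cct2 is described.

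Cct5, the epsilon subunit, whose human protein can form rings by itself, had the narrowest span over the 4 arrays of the 10 genes. It measured 2177 and 2152 on knockout arrays, against 2219 and 2206 on wild-type arrays. The groups did not overlap, yet the log2 change was only -0.03 (SE 0.20, interval -0.48 to 0.42).

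Cct6a, the zeta subunit of most tissues, had the largest change among the 10 genes, each by its brightest probe set. Its probe set 1455988_a_at measured 2035 and 1783 on knockout arrays, against 2352 and 2422 on wild-type arrays, a log2 change of -0.32 (SE 0.21, interval -0.79 to 0.14, unadjusted p = 0.150 in limma). The change was -0.21 within number 1 and -0.44 within number 2. The other probe set of the gene, 1423517_at, measured 1097 and 1314 on knockout arrays, against 1204 and 1303 on wild-type arrays, with overlapping groups and a change of -0.06.

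Cct7, the eta subunit, measured 1654 and 1623 on knockout arrays, against 1567 and 1306 on wild-type arrays, a log2 change of 0.19 (SE 0.23, interval -0.31 to 0.70). Its other probe set, 1415817_s_at, measured 1370 and 605 on knockout arrays, against 1268 and 1000 on wild-type arrays. There the change was 0.11 within number 1 and -0.71 within number 2, so the probe sets of Cct7 differed in direction, with knockout array 2 below the other 3 arrays for the dimmer one.

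Cct8, the theta subunit, measured 810 and 771 on knockout arrays, against 866 and 837 on wild-type arrays. The groups did not overlap, and the log2 change was -0.11 (SE 0.24, interval -0.66 to 0.44).

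Of the mitochondrial pair, Hspd1, the HSP60 ring subunit, measured 795 and 687 on knockout arrays, against 838 and 702 on wild-type arrays. The number 1 array was the brighter in each group and the groups overlapped. The log2 change was -0.05 (SE 0.26, interval -0.63 to 0.53), with -0.07 within number 1 and -0.03 within number 2.

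Hspe1, the HSP10 lid, measured 675 and 783 on knockout arrays, against 687 and 1050 on wild-type arrays (probe set 1450668_s_at). Wild-type array 2 stood above the other 3 arrays. The log2 change was -0.22 (SE 0.29, interval -0.86 to 0.42), and without wild-type array 2 it was 0.08. The dimmer probe set 1422579_at had 106 and 192 on knockout arrays, against 184 and 216 on wild-type arrays, a change of -0.43 (SE 0.35, interval -1.21 to 0.34), and here knockout array 1 was the one that stood apart.

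**Figure D2:**
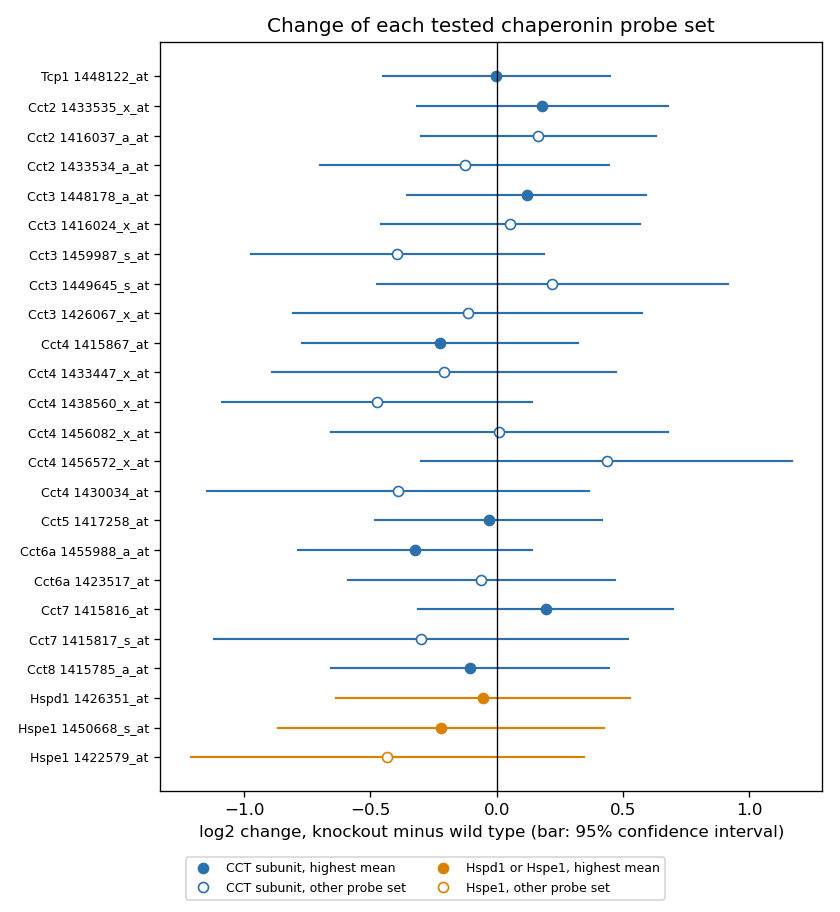
Log2 change, knockout minus wild type (horizontal axis), of the 24 tested chaperonin probe sets with bars for limma's 95% confidence interval. Filled points are the probe set with the highest mean of each gene, open points the others, blue for CCT subunits and orange for Hspd1 and Hspe1. Every bar crosses 0, and the points run from -0.47 to 0.44.

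For the 10 genes, whose log2 changes were all below 0.5 in size as were those of 88.7% of all tested genes, the 95% confidence intervals of the fold change lay between 0.549 and 1.62, so a 2-fold change in either direction was outside each of them under this fit. Over all 24 probe sets they lay between 0.432 and 2.25, and for some a 2-fold change was inside. Most of these were dimmer ones. The Cct7 probe set 1415817_s_at, with intensities from 605 to 1370, was also among them, at 0.460 to 1.43. These intervals rest on 2 arrays per group and on a variance shared across probe sets.

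The 8 CCT genes had a median log2 change of -0.02, and Hspd1 and Hspe1 one of -0.14, beside -0.01 over all 11595 tested genes. The difference between these medians was 0.12. On each array, the median of the CCT genes minus that of Hspd1 and Hspe1, each gene taken relative to its own mean over the 4 arrays, was 0.06 and 0.05 on the knockout arrays, against 0.05 and -0.11 on the wild-type arrays. Wild-type array 2 alone was below 0, the array on which Hspe1 was brightest. Without it the difference between the medians was 0.06. Within the CCT genes 4 of 8 were lower and 3 of 8 higher in knockout within both numbers, and Tcp1 was higher within number 1 and lower within number 2. Both mitochondrial genes were lower within both numbers. Over all tested genes the shares were 27.5% for lower and 26.1% for higher. The groups did not overlap for 4 lower and 1 higher of the 10 genes, all CCT subunits, beside 14.3% and 12.7% of all tested genes.

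Counted over probe sets, 12 of the 24 (50%) were lower in knockout within both numbers, where 27.4% of all tested probe sets were, and 6 (25%) were higher, where 25.9% of all were. All 3 probe sets of Hspd1 and Hspe1 were among the 12. Probe sets of 1 gene share their RNA and are not separate observations, and 4 of the 12 belong to Cct4. The groups did not overlap for 8 lower and 3 higher probe sets (14.4% and 12.6% of all tested). These directions move with the scaling of the arrays. With values as deposited, 21 of the 24 were lower and 0 higher, where 65% and 2.39% of all were. With scaling to a common trimmed mean 11 were lower and 7 higher (45.8% and 29.2%), where 25.7% and 27.2% of all were.

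**Figure D3:**
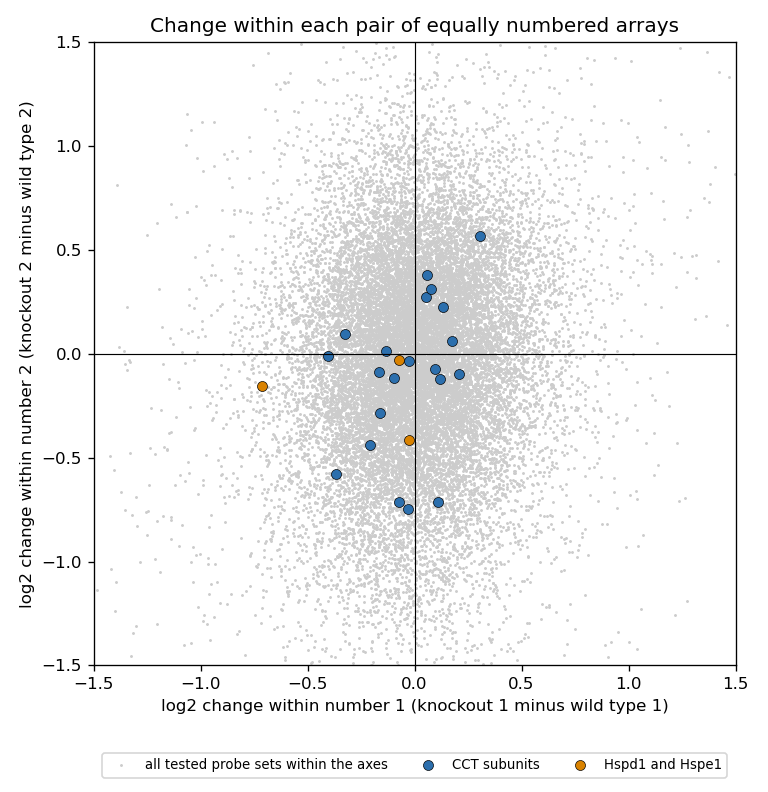
Log2 change within number 1 (horizontal axis, knockout 1 minus wild type 1) against that within number 2 (vertical axis, knockout 2 minus wild type 2). Grey points are all tested probe sets that fall within the axes, blue points the 21 tested CCT probe sets and orange points the 3 of Hspd1 and Hspe1. The chaperonins lie inside the grey cloud, which is wider along the vertical axis, with a median size of change of 0.33 within number 2 and 0.19 within number 1.

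Likeness of the genes over the arrays was described by the root mean square difference of log2 values, each gene relative to its own mean. The difference over the 4 arrays from the mean of the 8 CCT genes was 0.0263 for Cct5, 0.0529 for Tcp1 and 0.0631 for Cct8, and it reached 0.181 for Cct2. It was 0.135 for Hspd1 and 0.226 for Hspe1, beside a median of 0.245 over all 11595 tested genes. The CCT genes form part of the mean they were set against, while Hspd1 and Hspe1 do not, so these distances cannot be compared between the sets. Hspd1 and Hspe1, which share a promoter, were 0.345 apart, beside a median distance of 0.272 from Hspd1 over all tested genes, since Hspd1 was brighter on the number 1 arrays and Hspe1 on the number 2 arrays. The non-member genes nearest to Hspd1 were Rnf215 (0.0114), Yipf6 (0.0137) and Rassf2 (0.0156), and those nearest to the CCT mean were 4921531C22Rik (0.0125), Crybb3 (0.0137) and Usp32 (0.0167). With 4 arrays and small changes, 632 of 11595 genes lay within 0.1 of Hspd1 and 858 within 0.1 of the CCT mean, so the nearest genes say little.

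Genes that work with CCT were described in the same fit, again by the brightest probe set, and 0 of them passed the threshold, where 0.0259% of all tested genes did. Prefoldin, which hands unfolded actin and tubulin to CCT, had 6 of 6 subunits tested and a median log2 change of 0.03. Its subunits ranged from -0.19 for Pfdn6, at 400 and 388 on knockout arrays, against 413 and 497 on wild-type arrays, to 0.15 for Pfdn4. Pfdn4 and Pfdn5 were brighter on the number 2 array of each group. Vbp1, another prefoldin subunit, had -0.13.

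Of 9 regulators of CCT and CCT-like genes, 6 passed the filter, with a median of -0.05. Pdcl, a phosducin-like protein that assists CCT in assembling G protein beta and gamma subunits, measured 115 and 116 on knockout arrays, against 140 and 176 on wild-type arrays, a change of -0.40 (SE 0.30, unadjusted p = 0.218 in limma). Mkks, a chaperonin-like protein of the Bardet-Biedl complex, had 0.35, with 0.84 within number 1 and -0.15 within number 2. Cct6b, the testis form of the zeta subunit, did not pass the filter, with 9.40 and 6.10 on knockout arrays, against 1.25 and 1.08 on wild-type arrays. Among the 6 tubulin folding cofactors, which take tubulin over from CCT, the median was 0.14. Tbce had 0.31 and Tbca 0.21, both with overlapping groups.

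The clients of CCT had 22 of 24 genes tested, with a median of -0.03. Within both numbers 7 were lower and 5 higher, beside 27.5% and 26.1% of all tested genes. These 22 do not include the actin Actc1, which is listed with the striated muscle markers. There it passed the threshold, with a log2 change of -3.98. Actb, cytoplasmic beta-actin, measured 6017 and 6784 on knockout arrays, against 6070 and 6784 on wild-type arrays. At this height quantile normalization sets values by rank, so equal values were partly fixed by the method. Tubb5, a beta-tubulin, measured 3205 and 3156 on knockout arrays, against 3542 and 3273 on wild-type arrays, a change of -0.10. Tubb2b, a beta-tubulin of neurons, measured 584 and 341 on knockout arrays, against 847 and 488 on wild-type arrays, a log2 change of -0.51 (SE 0.36, unadjusted p = 0.189 in limma). The groups overlapped, with number 2 dimmer in both, and the change was -0.53 within number 1 and -0.50 within number 2. Leaving out an array gave from -0.90 without wild-type array 2 to -0.12 without wild-type array 1. Tuba8, a dim alpha-tubulin, had -0.55, carried by knockout array 2 alone.

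In mitochondria, 14 genes of the HSP70 system and of protein import, which deliver precursors towards HSP60, had a median change of 0.06. Within both numbers 2 were lower and 6 higher, beside 27.5% and 26.1% of all tested genes. Grpel1, the nucleotide exchange factor of mitochondrial HSP70, measured 324 and 481 on knockout arrays, against 220 and 324 on wild-type arrays, with a log2 change of 0.54 (SE 0.33, unadjusted p = 0.134 in limma), 0.53 and 0.55 within the numbers, and from 0.27 without knockout array 2 to 0.81 without knockout array 1. Hspa9, mitochondrial HSP70 itself, measured 312 and 402 on knockout arrays, against 415 and 475 on wild-type arrays, a change of -0.31. The groups did not overlap for either, in opposite directions, for Grpel1 only narrowly. Timm44, which tethers HSP70 to the import channel, had -0.36, with 0.01 within number 1.

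Lonp1, the ATP-dependent protease of the mitochondrial matrix, had the lowest p among the mitochondrial genes listed. It measured 155 and 123 on knockout arrays, against 71.8 and 80.9 on wild-type arrays, a log2 change of 0.74 (SE 0.31, interval 0.05 to 1.43, unadjusted p = 0.0371 in limma, adjusted p = 1). Afg3l2, a protease of the inner membrane, had 0.30, and the 10 mitochondrial proteases had a median of 0.07. The 14 matrix enzymes tested had a median of -0.07. Of these, Idh2 measured 743 and 584 on knockout arrays, against 554 and 456 on wild-type arrays, a change of 0.38, and Aldh2 had -0.29.

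Cytosolic heat shock proteins and their partners had 15 of 17 genes tested and 0 called, where 0.0259% of all tested genes were. Their median was -0.08. Within both numbers 7 were lower and 1 higher, beside 27.5% and 26.1% of all tested genes. Hspb1, of the small heat shock proteins, measured 75.3 and 124 on knockout arrays, against 354 and 147 on wild-type arrays, a change of -1.12 (unadjusted p = 0.0269 in limma). The change was -2.02 within number 1 and -0.21 within number 2, and without wild-type array 1 it was -0.52. Dnajb1, a partner of HSP70, measured 288 and 524 on knockout arrays, against 661 and 726 on wild-type arrays, a change of -0.81 (unadjusted p = 0.0344 in limma), and without knockout array 1 it was -0.39. The chaperonin genes lay between -0.32 and 0.19.

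**Figure D4:**
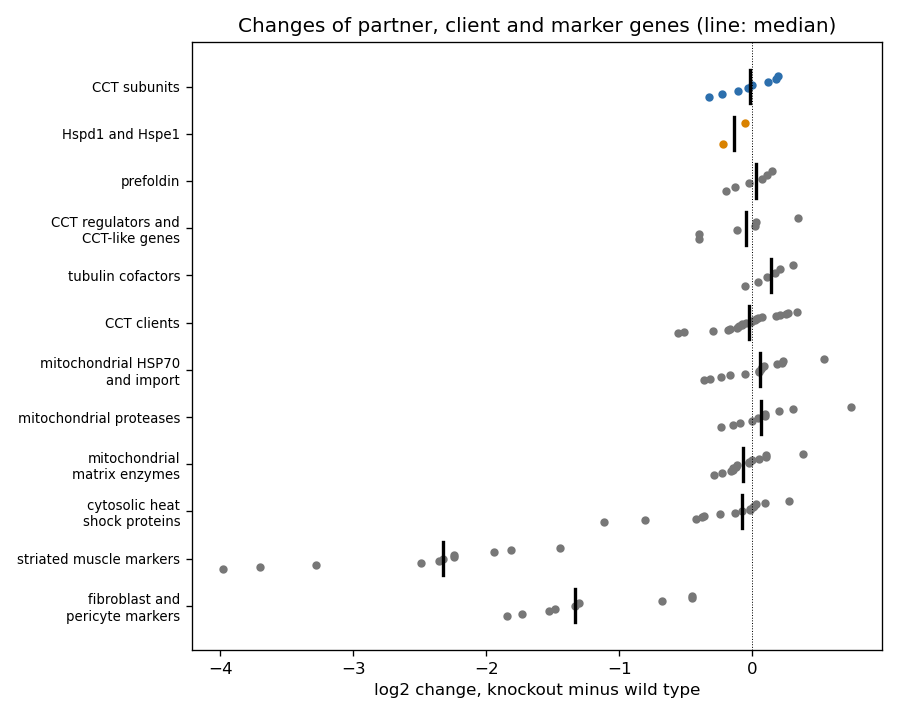
Log2 change, knockout minus wild type (horizontal axis), of each tested gene by list, with a line at the list's median. CCT subunits (blue) have a median of -0.02 and Hspd1 and Hspe1 (orange) of -0.14. The medians of the partner and client lists lie between -0.08 and 0.14. The striated muscle and the fibroblast and pericyte markers have medians of -2.32 and -1.33.

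Of the 8 genes whose promoter window holds a run of 4 heat shock units, 6 were measured and all passed the filter. In limma 0 of these passed the threshold, where 3 of all 11595 tested genes did. None had an unadjusted p under 0.05, where 269 of all did. Beside Hspd1 and Hspe1 the 6 measured are Chordc1, a partner of HSP90, Arpc2, a subunit of the actin-nucleating complex, Fam149a and Kctd18. Chordc1 measured 230 and 316 on knockout arrays, against 197 and 410 on wild-type arrays, a change of -0.08. Arpc2 had 1795 and 1263 on knockout arrays, against 1534 and 1229 on wild-type arrays, a change of 0.13. Fam149a was dim, at 29.3 and 16.8 on knockout arrays, against 17.7 and 11.1 on wild-type arrays, a change of 0.35. These 3 genes had overlapping groups, as had Hspd1 and Hspe1. Kctd18 was dim and higher in knockout without overlap, at 37.9 and 54.2 on knockout arrays, against 24.3 and 31.3 on wild-type arrays, a change of 0.50 (interval -0.22 to 1.21).

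Of the 179 genes with a run of at least 3 units in a promoter window, 88 had a probe set named for 1 gene and 51 passed the filter. Of all 11595 tested genes, 3 passed the threshold in limma and 269 had an unadjusted p under 0.05. None of the 51 passed the threshold in limma, and 0 had an unadjusted p under 0.05. Their median log2 change was -0.05 beside -0.01 over all tested genes, with 19 lower and 16 higher within both numbers (27.5% and 26.1% of all tested genes). These promoter groups were drawn up after the values of the members had been seen.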

How the data were processed

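RNA of newborn lenses was measured on Affymetrix mouse arrays. The authors deposited linear intensities, 1 for each probe set on each array. The sources used here do not give how probes were summarised or background was handled. Probe sets were named by the platform annotation, with symbols updated by gene ID. With limma 3.58.1 (R 4.3.3) the 4 arrays were brought to 1 distribution by quantile normalization, 16 was added, log2 was taken, and 64 control probe sets were removed. The 22519 probe sets with a mean at or above the median were fitted with limma's moderated test with an intensity trend, and p-values were adjusted over all of them (Benjamini-Hochberg). Lists are described by their counts and medians, each gene by its brightest probe set, and 10 of the 173 list entries had no probe set named for them alone. Named genes were all members, Hsf4, the genes past the threshold or otherwise the 2 with the lowest p of each list, and the 3 nearest profiles. Pfdn4, Pfdn5, Cct6b, Actb, Tubb5, Hspa9, Chordc1, Arpc2, Fam149a and Kctd18 were named outside that rule, after their values were seen. The members and lists were chosen with earlier results of these data known. The fit was also run on simulated arrays with known changes, where the direction and mean size of the estimates were checked. Those arrays varied independently, without the likeness of equally numbered arrays seen here. Alternatives were other scalings, filters, offsets, variance models and probe set summaries, the array number as a block, and leaving out each array.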

Additional observations from a re-analysis of the deposited data

How the results depend on the processing

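No chaperonin probe set passed the threshold under any of the 16 alternatives, each fitted with limma. With the array number as a replicate block the count was 0 of 24, and 3 had an unadjusted p under 0.05. The labels do not tie the array numbers to animals, litters or days, and the deviations of equally numbered arrays from their group means had a correlation of 0.43 over tested probe sets. In that fit 2 partner genes, Dnajb1 and Hspb1 of the cytosolic heat shock proteins, passed, against 0 without the block. So did Hsf4 (adjusted p = 4.47e-09 in limma), Bfsp1 (2.16e-11), Col1a1 (3.51e-07), Col3a1 (2.17e-13), Neurod4 (0.000241) and Hbb-b2 (0.0262). With the block, 4 arrays leave very little spread to estimate for each probe set. These p-values therefore rest mostly on the variance shared across probe sets and do not measure agreement between the numbers. Neurod4 passed with changes of 0.10 within number 1 and -2.15 within number 2. Hsf4 also passed without knockout array 2 (adjusted p = 0.000217), but not with another array left out. The count over all tested probe sets was 317 with the block and 4 without, 0 with values as deposited and with no filter, 16 with median centring, and from 4 to 566 with 1 array left out, the highest without knockout array 1.

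Scaling moved the medians. With values as deposited the median of all tested probe sets was -0.42, the CCT median -0.55, that of Hspd1 and Hspe1 -0.77 and their difference 0.22. With median centring these were -0.25, -0.38, -0.60 and 0.22. With trimmed-mean scaling the CCT median was 0.0750 and the difference 0.24, and with cyclic loess the CCT median was -0.00475. Within number 1 and number 2 the CCT median was 0.0248 and -0.0760. These 2 values were chosen after seeing the data, as were the counts of direction by scaling. With 1 array left out the CCT median ranged from -0.0545 to 0.0140, and the difference from 0.06 to 0.17. The cause of these shifts was not tested.

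Of 355 single values, 321 kept their direction and 34 did not, all without a call. The other filters, the fit without a trend, the block and 1 probe set per gene cannot alter a log2 change. Their share of the 321 was thus fixed in advance. All 34 came from other scalings, the mean of all probe sets or leaving out an array. With values as deposited, Cct2 had -0.27 and -0.42 (1433535_x_at, 1416037_a_at), Cct3 -0.43, -0.55 and -0.38 (1448178_a_at, 1416024_x_at, 1449645_s_at), Cct4 -0.45 (1456082_x_at) and Cct7 -0.39 (1415816_at). With median centring the same probe sets had -0.0935, -0.25, -0.25, -0.37, -0.21, -0.28 and -0.22. With trimmed-mean scaling Tcp1 had 0.12, Cct5 0.0333 and Cct4 1456082_x_at -0.00408, and with cyclic loess Tcp1 had 0.0335. With the mean of all probe sets, Cct7 had -0.0531 and Cct8 0.0428. With 1 array left out, the log2 change ranged from -0.10 to 0.0981 for Tcp1, -0.18 to 0.0719 for Hspd1, -0.52 to 0.0800 for Hspe1 (1450668_s_at), -0.00579 to 0.37 for Cct2 (1433535_x_at), -0.0745 to 0.18, -0.29 to 0.0630 and -0.0506 to 0.49 for Cct3 (1416024_x_at, 1426067_x_at, 1449645_s_at), -0.55 to 0.13 and -0.0478 to 0.0701 for Cct4 (1433447_x_at, 1456082_x_at), -0.19 to 0.0684 for Cct6a (1423517_at) and -0.88 to 0.28 for Cct7 (1415817_s_at). A lone array of a group was assumed to vary like the others.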
